A study of Rattus norvegicus with 8 samples.

Results

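Sciatic nerve allografts that had not been PEG-fused, which the study describes as rejected, were compared with unoperated sciatic nerve, gene by gene. All animals were female Sprague Dawley rats, an outbred stock, aged 3 to 6 months. NC PNAs (negative control peripheral nerve allografts) were pieces of a donor sciatic nerve sewn into the cut nerve of a host, excised at 14 days PO (post-operation). The repair used microsutures with Plasmalyte A and methylene blue and no polyethylene glycol, and donor and host were neither matched for tissue type nor given immune suppression. Unop nerves were sciatic nerves of animals that had no surgery, a left nerve (Unop 1) and a right nerve (Unop 2). The 3 NC PNAs and 2 Unop nerves were each sequenced as 1 poly-A RNA library, and 3 PEG-fused PNAs of the same age after surgery completed the series of 8 libraries. Of 32545 Ensembl genes, 16188 had at least 10 normalized read counts in at least 2 of the 5 NC and Unop libraries, and these were the genes compared. Among the genes compared, 794 reached the minimum only through NC PNAs and 440 only through Unop nerves. For these the minimum itself favoured 1 direction of change. Of the genes not compared, 10508 had no read in the 5 libraries and 5849 had reads but did not reach the minimum.

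In an intact nerve, Schwann cells wrap large axons in myelin, the perineurium and the vessels of the nerve form a barrier to blood and lymph, and fat lies in the epineurium around the fascicles. When axons are cut, the part beyond the injury undergoes Wallerian degeneration, in which axons and myelin break down, Schwann cells give up their myelinating state and macrophages clear the debris. In an allograft the host's T cells also recognise donor major histocompatibility (MHC) molecules, and interferon gamma from T and natural killer cells raises antigen presentation and draws in more leukocytes. An NC PNA differs from a Unop nerve by injury, loss of axons, surgery and rejection at once, and these cannot be told apart in the comparison.

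The deposited values are normalized read counts, reads per gene divided by a factor for the depth of each library. The 5 libraries held 32472925 to 39959620 reads on genes. Fold changes are differences in the group mean of log2(normalized read count + 1), a scale that understates the change of low genes. A gene was called higher or lower with an adjusted p under 0.05 and a log2 fold change past 1 in either direction. By this rule 3168 genes (19.6% of those tested) rose and 3121 (19.3%) fell in NC PNAs, and the median over all tested genes was 0.02. The counts given for gene lists are of tested members and are to be read beside these shares. The NC and Unop libraries did not overlap for 75% of the tested genes (37.2% with every NC PNA above, 37.8% with every NC PNA below). Changes were often large: 1147 genes passed a log2 fold change of 3 upwards and 790 downwards, and 135 and 110 passed 6. Counts are relative within a library. In a bulk sample, fewer cells of a type, less RNA per cell and dilution by RNA of other cells cannot be told apart.

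**Figure D1:**
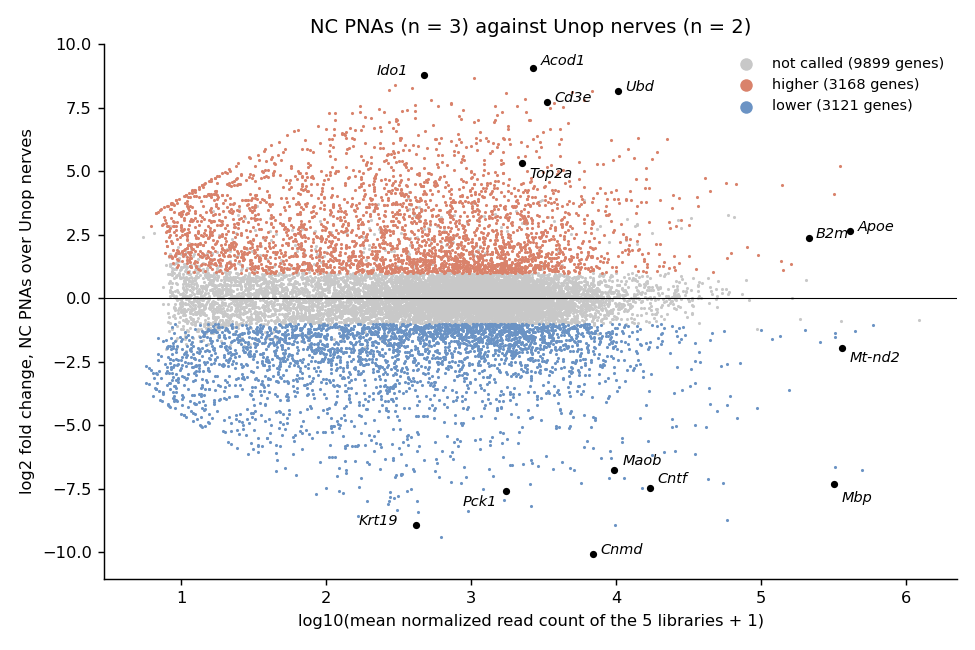
Log2 fold change of NC PNAs (n = 3) over Unop nerves (n = 2) on the vertical axis against log10 of the mean normalized read count of the 5 libraries + 1 on the horizontal axis, with 1 point per tested gene. The 3168 genes called higher are red, the 3121 called lower are blue, and the 14 labelled genes are described in the text, from Cnmd at -10.09 to Acod1 at 9.06.

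The Unop libraries were rich in transcripts of peripheral myelin, as sciatic nerve is, and the NC libraries in transcripts of T cells and macrophages. The NC PNAs were unlike each other in skeletal muscle transcripts. The tested muscle fibre genes took 3.08%, 0.0532% and 1.2% of the reads of NC 1, NC 2 and NC 3 against 0.136% and 0.0263% of those of Unop 1 and Unop 2. NC 1 and NC 3 were therefore high, and NC 2 was below Unop 1. The study's text describes a thin coat of muscle and connective tissue on rejected NC PNAs that could not all be cut away. NC 1 also kept the most myelin transcripts of the 3 grafts, and where a call changed without a library, its value without that library is given. Within groups the libraries correlated at 0.957 to 0.980 (NC) and 0.983 (Unop) over the tested genes on the log2 scale, and between groups at 0.767 to 0.810.

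**Figure D2:**
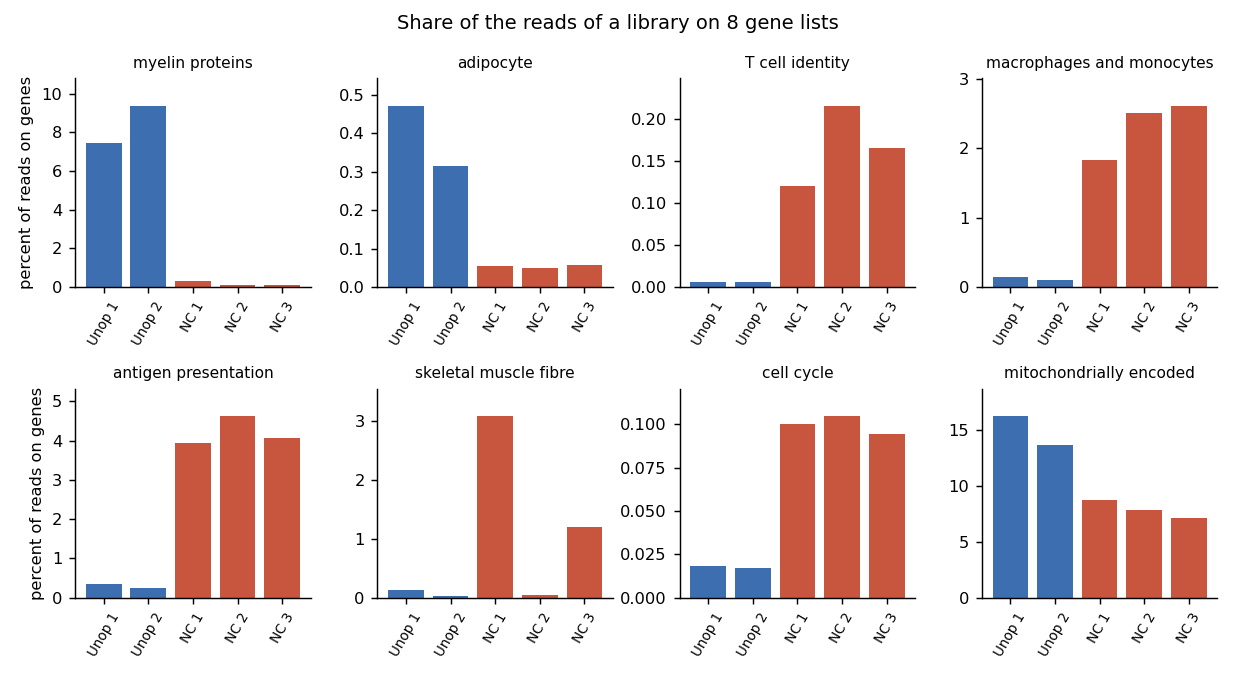
Percent of the reads on genes of each library that fell on 8 gene lists, with Unop 1 and Unop 2 in blue, NC 1 to NC 3 in red and a separate vertical axis from 0 for each list. Myelin protein genes held 7.44% and 9.39% of reads in the Unop nerves and at most 0.312% in an NC PNA, while muscle fibre genes held 3.08% in NC 1, 1.2% in NC 3 and 0.0532% in NC 2.

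Transcripts for the proteins of compact myelin were nearly lost from NC PNAs. Of 16 myelin protein genes, 15 fell, and the median log2 fold change was -6.72. Together they held 0.312%, 0.126% and 0.115% of the reads of NC 1, NC 2 and NC 3 against 7.44% and 9.39% of those of Unop 1 and Unop 2. Mbp, which holds the inner faces of the membrane together, had 12599, 4296 and 2152 normalized read counts in NC 1, NC 2 and NC 3 and 708519 and 855747 in Unop 1 and Unop 2 (log2 fold change -7.32 ± 0.59 (SE), adjusted p = 1.44e-05). Every NC PNA was far below both Unop nerves, and NC 1 was the highest of the 3 grafts. Pmp22, a tetraspan protein of compact myelin, had 17163, 5559.6 and 5035 in NC 1 to NC 3 and 739619 and 843732 in Unop nerves (log2 fold change -6.66 ± 0.47 (SE), adjusted p = 6.93e-06). The largest falls of the list were in Ncmap, a myelin membrane protein, and Drp2, which joins the Schwann cell to its basal lamina with periaxin. Drp2 had 799, 228 and 207 against 118076 and 172406 (log2 fold change -8.73 ± 0.51 (SE), adjusted p = 2.94e-06), and Ncmap had 458, 30.1 and 7.72 against 21378 and 27177 (log2 fold change -8.91 ± 1.39 (SE), adjusted p = 6.04e-04). The Ncmap grafts spread widely, with NC 1 well above NC 2 and NC 3, and without NC 1 the log2 fold change of Ncmap was -10.52. Cnp (-1.41) fell less than Mbp. Gjc3, a connexin of glia, was the member not called, with 339, 77.5 and 72.3 against 196 and 248.9 (log2 fold change -0.83 ± 0.59 (SE), adjusted p = 0.248); without NC 1 its log2 fold change was -1.55 with adjusted p = 6.65e-04.

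Regulators of the myelinating Schwann cell had smaller fold changes than the myelin proteins. Of 14 tested, 7 fell, with a median of -1.07. S100b, a calcium-binding protein that marks Schwann cells, had 7649, 6242 and 4875 normalized read counts in the NC PNAs and 167369 and 153431 in the Unop nerves (log2 fold change -4.70 ± 0.17 (SE), adjusted p = 7.53e-07). Egr2 (Krox20), the transcription factor that switches on myelin genes, had 935, 941 and 730.2 against 3271 and 4398 (log2 fold change -2.13 ± 0.23 (SE), adjusted p = 7.29e-05). Sox10, which all Schwann cells need for their identity, had 1792, 1438 and 1196 against 4257 and 3864 (log2 fold change -1.48 ± 0.15 (SE), adjusted p = 6.08e-05). The grafts lay below both Unop nerves for all 3 genes, and S100b had the largest fall of the list. Pou3f1, which precedes Egr2 in development, overlapped between groups at 283, 74.2 and 93.6 against 144 and 97.6 (adjusted p = 0.905). The neuregulin receptors Erbb2 (-0.79) and Erbb3 (-0.39) were not called.

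Genes of the repair Schwann cell, the state that follows loss of axons, moved in both directions. Of 18 tested, 8 rose, 4 fell and 6 were not called (median 0.96). The shares that rose and fell were 44.4% and 22.2%, beside 19.6% and 19.3% of all tested genes. Ngfr, the low-affinity neurotrophin receptor p75, had 6423, 7128 and 5706 normalized read counts in NC PNAs against 1139.7 and 713 in Unop nerves (log2 fold change 2.82 ± 0.20 (SE), adjusted p = 8.09e-06). Bdnf, a neurotrophin, had 40.2, 64.5 and 48.2 against 3.22 and 1.25 (log2 fold change 4.05 ± 0.46 (SE), adjusted p = 9.91e-05). Groups did not overlap for either gene. Other secreted factors that rose were Lif (2.88), Fgf5 (3.60) and Ucn2 (3.73), and Gdnf, another survival factor for neurons, had 16.98, 13.99 and 22.2 against 1.07 and 1.25. Jun, the transcription factor that drives the repair state, was higher in every graft at 4742, 5201 and 4968 against 2844 and 2330.1 but its log2 fold change of 0.95 was under the threshold (adjusted p = 5.97e-04). Shh, a morphogen released by injured Schwann cells, went the other way, with 64.3, 27.97 and 37.6 against 413 and 366 (log2 fold change -3.22 ± 0.37 (SE), adjusted p = 1.05e-04). Gfap (-2.61), L1cam (-1.70) and Ncam1 (-1.09), which mark non-myelinating and denervated Schwann cells, fell too, but Ncam1 was not called without NC 2 (-0.82) or without Unop 2 (-0.86, adjusted p = 0.114). Without Unop 2 the log2 fold change of Ucn2 was 2.31, and that of Jun passed the threshold without Unop 1 (1.09), with the replicate block (1.00) and with NC 2 as the only graft (1.01). Cntf, a neurotrophic factor stored in myelinating Schwann cells, gave the smallest adjusted p among the genes that fell, with 273, 262 and 188 in the grafts and 43505 and 41465 in the Unop nerves (log2 fold change -7.47 ± 0.16 (SE), adjusted p = 2.48e-07).

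**Figure D3:**
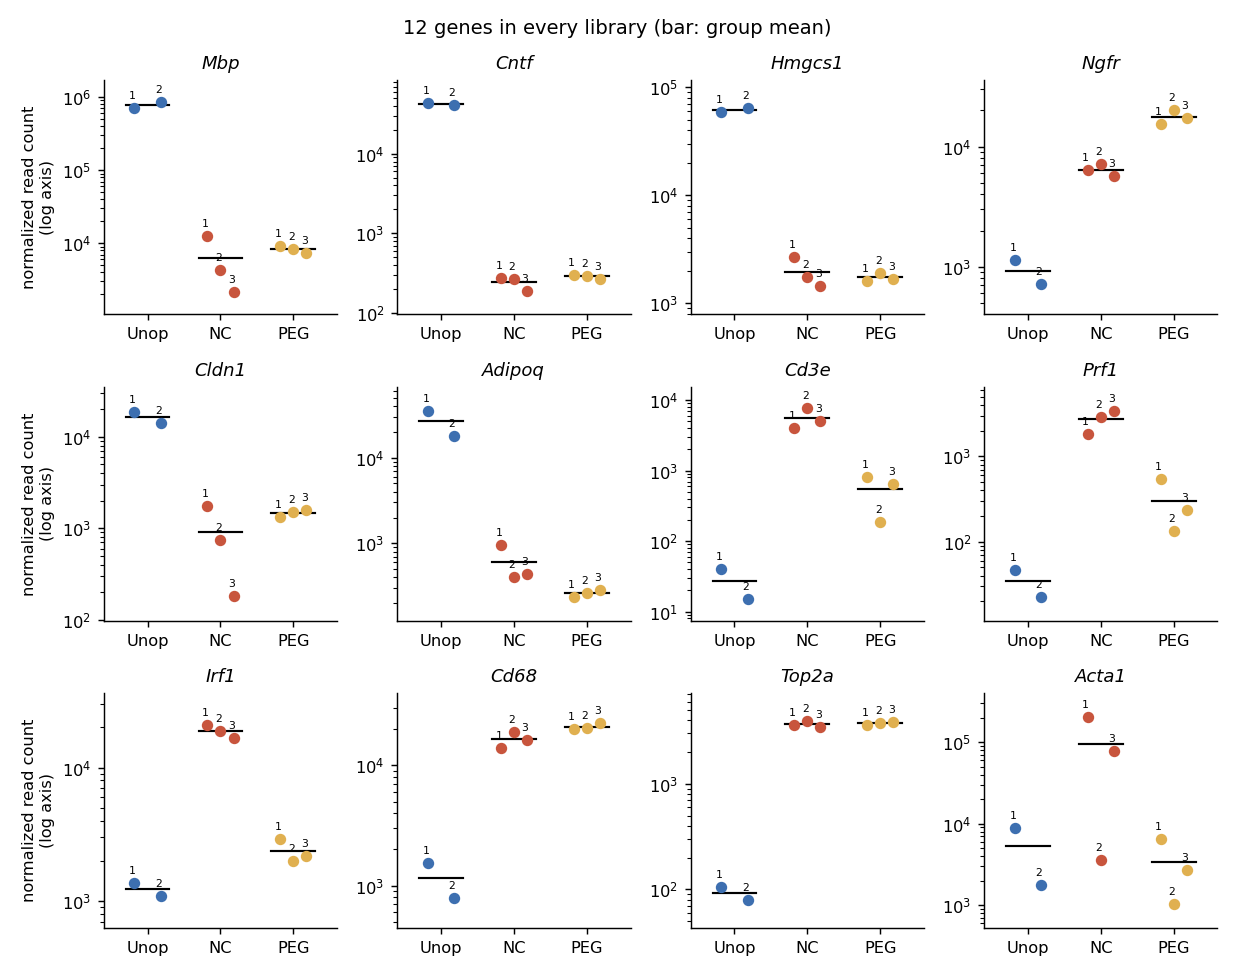
Normalized read counts of 12 genes in each library on log axes, with the libraries of Unop nerves (blue), NC PNAs (red) and PEG-fused PNAs (yellow) numbered by replicate and black bars for group means. The NC PNAs are apart from both Unop nerves for every gene but Acta1, a skeletal muscle actin, where NC 2 lies between the Unop nerves.

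Lipid synthesis, on which myelin membrane depends, fell with the myelin proteins. Of 21 tested genes of sterol synthesis and uptake, 18 fell (median -2.46). Hmgcs1, which makes the precursor of mevalonate, had 2687, 1755 and 1431 normalized read counts in NC PNAs and 59138 and 64503 in Unop nerves (log2 fold change -5.03 ± 0.23 (SE), adjusted p = 1.14e-06). Every graft lay far below both Unop nerves. Enzymes of later steps fell as well, among them Fdft1 (-3.89), Sqle (-2.88) and Cyp51 (-3.35), while Srebf2, the transcription factor of the pathway, was not called (-0.52). Of 17 genes of fatty acid and myelin lipid synthesis, 15 fell (median -2.71). Fa2h, which makes the 2-hydroxy fatty acids of myelin galactolipids, had 130.5, 17.2 and 24.1 against 6004 and 6439 (log2 fold change -7.31 ± 0.75 (SE), adjusted p = 5.61e-05), and without NC 1, the highest graft, its log2 fold change was -8.18. Ugt8, which makes galactosylceramide, fell by 6.05 on the log2 scale. Fasn, the fatty acid synthase found in many cells, fell by less, with 2513, 2515 and 2045 against 9965 and 9873 (log2 fold change -2.08 ± 0.11 (SE), adjusted p = 1.83e-06).

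Genes of the node of Ranvier and of contact between axon and glia fell in 10 of 14 cases (median -1.83). Nfasc, whose glial form anchors the paranodal loops, had 89.4, 58.1 and 39.6 normalized read counts in NC PNAs against 4750.0 and 6353 in Unop nerves (log2 fold change -6.52 ± 0.30 (SE), adjusted p = 1.23e-06). Gldn, which clusters sodium channels at peripheral nodes, had 1128, 264 and 261 against 5469 and 7070.4 (log2 fold change -3.86 ± 0.66 (SE), adjusted p = 9.95e-04). NC 1 stood above the other grafts for Gldn, as it did for Mbp, and without it the log2 fold change of Gldn was -4.56. Cntn1, an axonal contactin, rose instead, with 473, 588 and 947 against 70.8 and 72.5 (log2 fold change 3.14 ± 0.45 (SE), adjusted p = 3.88e-04). Axonal ion channel proteins are translated mainly in the cell body, and the cells that held the channel transcripts of these bulk samples were not told apart. Of 69 tested genes for voltage-gated sodium and potassium channels and related potassium channels, 27 fell and 17 rose. These were 39.1% and 24.6%, beside 19.3% and 19.6% of all tested genes. Kcna1 (30.4, 1.08 and 0 against 776 and 1299.5) and Kcna2 (39.3, 4.30 and 6.75 against 433 and 933), both of the Shaker family, fell to single digits in NC 2 and NC 3 (log2 fold changes -7.96 and -5.75, or -9.45 and -6.63 without NC 1). Kcna5 had 6.26, 0 and 0.965 against 644 and 674 (log2 fold change -8.09 ± 0.84 (SE), adjusted p = 5.69e-05). Scn7a, a sodium channel of Schwann cells, fell by 4.71. Those that rose included Kcnn4 (3.71), a calcium-activated channel of lymphocytes and macrophages, and Kcna7 (3.59), a channel of muscle. Without Unop 2 the adjusted p of Kcna7 was 0.0654, and with NC 2 as the only graft 0.104. Kcng1 had no read in either Unop nerve and 54.5, 92.5 and 37.6 in the grafts, at least 17.7-fold higher when each Unop library is set to a floor of 3 counts. NC 2 had the fewest muscle transcripts of the grafts, and with NC 2 as the only graft the log2 fold change of Kcna7 was 2.03. The part of muscle in the rises of channel genes was not tested.

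The nerve's barrier genes fell in 9 of 13 cases (median -2.07). Cldn1, the claudin of perineurial tight junctions, had 1764, 749.8 and 182 normalized read counts in NC PNAs and 18783 and 14248 in Unop nerves (log2 fold change -4.71 ± 0.75 (SE), adjusted p = 7.03e-04). The grafts ranged widely, NC 3 being lowest, yet all lay below both Unop nerves. Slc2a1, the glucose transporter GLUT1 of perineurium and endoneurial vessels, had 2363, 4241 and 2377 against 11646 and 10749 (log2 fold change -1.96 ± 0.25 (SE), adjusted p = 1.80e-04). Mfsd2a (-4.30) and Abcg2 (-3.39), transporters of barrier endothelium, fell too, whereas Ocln overlapped at 1108, 1331 and 1108 against 1229 and 1282 (adjusted p = 0.511). Among the 10 largest falls were Krt19, a keratin of simple epithelia, at 1.79, 2.15 and 0 against 1280.3 and 792 (log2 fold change -8.93 ± 0.60 (SE), adjusted p = 5.63e-06), and Oxtr, the oxytocin receptor, at 2.68, 0 and 1.93 against 1026 and 499 (log2 fold change -8.34 ± 0.66 (SE), adjusted p = 1.32e-05). Vessel genes changed less: of 12 endothelial genes, 4 fell (median -0.72), or 7 with NC 2 as the only graft. Cdh5, the cadherin of all endothelium, had 4157, 2929 and 4118 against 5973 and 5602 (log2 fold change -0.65, adjusted p = 0.0116; 0.069 without Unop 1), while Tek, the angiopoietin receptor, had 1411, 1011 and 1851 against 3934 and 3839.8 (log2 fold change -1.49 ± 0.22 (SE), adjusted p = 4.64e-04). Receptors that hold leukocytes to endothelium rose, with Icam1 at 5537, 7249 and 5512 against 2134 and 1759 (log2 fold change 1.64 ± 0.15 (SE), adjusted p = 2.92e-05) and Vcam1 at 5374, 6109 and 5595 against 1632 and 1276 (log2 fold change 1.98 ± 0.21 (SE), adjusted p = 6.94e-05). Sele, E-selectin, did not separate, at 552, 454 and 518 against 547 and 428. Of the 13 leukocyte adhesion genes, 10 rose (median 3.16), and among the largest changes were the leukocyte partners Itgal (5.31) and Selplg (4.58).

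Matrix genes divided by chain. Of 19 basement membrane genes, 11 fell (median -1.34). The type IV collagen chain Col4a4 had 154, 184 and 141 normalized read counts in NC PNAs against 5343 and 5336 in Unop nerves (log2 fold change -5.07 ± 0.14 (SE), adjusted p = 3.94e-07), and its partner Col4a3 had 25.02, 31.2 and 27.01 against 574 and 670.4 (log2 fold change -4.44 ± 0.25 (SE), adjusted p = 2.49e-06). Col4a1 and Col4a2, the chains of nearly every basement membrane, had log2 fold changes of -0.37 and -0.33 and were not called. The laminin chain Lama2 of the Schwann cell basal lamina fell by 2.34. Over the 40 collagen genes tested, 14 fell (35%, beside 19.3% of all tested genes) and 6 rose (15%, beside 19.6%). Col9a1, a collagen best known from cartilage, had 0, 3.23 and 5.79 against 948 and 1169 (log2 fold change -8.43 ± 0.84 (SE), adjusted p = 4.55e-05), and Col2a1 (-5.64), Col9a3 (-3.08) and Col9a2 (-2.46) fell with it, Col2a1 with an adjusted p of 0.0626 without Unop 1 and 0.0681 without Unop 2. Cnmd (chondromodulin), an inhibitor of vessel growth in cartilage and tendon, had the lowest log2 fold change of all genes named. It had 67.9, 18.3 and 1.93 against 15215 and 19211 (log2 fold change -10.09 ± 1.08 (SE), adjusted p = 7.14e-05). The fibrillar chains Col1a1 (0.25), Col1a2 (-0.24) and Col3a1 (0.72) were not called. Col7a1, the anchoring fibril collagen, rose, with 419, 653 and 532 against 47.2 and 17.5 (log2 fold change 4.14 ± 0.43 (SE), adjusted p = 6.18e-05). Of 19 fibroblast and interstitial matrix genes, 4 rose and 4 fell (21.1% each), near the shares of all tested genes (19.6% and 19.3%). Postn (periostin), a matrix protein of wounds, had 50626, 49797 and 69638 against 6839.5 and 1852 (log2 fold change 3.98 ± 0.46 (SE), adjusted p = 1.04e-04), while Dcn (decorin), a proteoglycan of resting fibroblasts, had 58013, 67097 and 68611 against 221810.3 and 174085 (log2 fold change -1.61 ± 0.18 (SE), adjusted p = 1.04e-04). Fibronectin (Fn1, 2.03) and tenascin C (Tnc, 1.55) rose, Tnc with an adjusted p of 0.0613 without Unop 1 and 0.1 without Unop 2, and Pdgfra, a receptor that marks fibroblasts, was not called at 7860.2, 8678 and 7989 against 6306 and 6396.

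Of 52 tested genes for matrix metalloproteinases, proteins of the ADAM families and TIMPs, the tissue inhibitors of these enzymes, 21 rose and 12 fell (median 0.78). These were 40.4% and 23.1%, beside 19.6% and 19.3% of all tested genes. Mmp7 (matrilysin) had 131, 1081 and 312 normalized read counts in the grafts and 6.44 and 0 in the Unop nerves (log2 fold change 7.02 ± 1.29 (SE), adjusted p = 0.00155), with a wide spread in which NC 2 was highest. Mmp12 (5.56), Mmp8 (4.87) and Mmp9 (4.48), enzymes made by macrophages, stromal cells and neutrophils, rose as well. Mmp28 (epilysin) fell, with 66.1, 107 and 79.1 against 1406 and 1562 (log2 fold change -4.15 ± 0.21 (SE), adjusted p = 1.60e-06), as did the inhibitors Timp2 (-1.19), Timp3 (-2.09) and Timp4 (-2.08), while Timp1 had 0.99 and was not called, though it was by edgeR (1.03), by DESeq2 (1.03), with TMM factors, and without NC 1 (1.19), NC 2 (1.02) or Unop 1 (1.18).

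Fat cell transcripts were depleted, with 13 of 14 adipocyte genes lower (median -3.40). Adipoq, the adipokine adiponectin, had 967, 408 and 434 normalized read counts in NC PNAs and 35084 and 18102 in Unop nerves (log2 fold change -5.50 ± 0.39 (SE), adjusted p = 7.56e-06). Lep (leptin) had 18.8, 11.8 and 13.5 against 3209 and 1305 (log2 fold change -7.05 ± 0.44 (SE), adjusted p = 3.90e-06), and Pck1, which supplies glycerol for triglyceride in fat, had 24.1, 19.4 and 20.3 against 4569.7 and 4027 (log2 fold change -7.60 ± 0.45 (SE), adjusted p = 3.07e-06). Every graft lay below both Unop nerves by more than 10-fold for these genes, and Unop 1 had more adipocyte transcripts than Unop 2. The tested adipocyte genes summed to 16842 to 19260.2 normalized read counts in NC PNAs and 127509 to 202526 in Unop nerves, so fat cell transcripts moved with the comparison, and their part in the other falls was not tested. Transcripts of mast cells, which reside in nerve, fell in 8 of 10 cases (median -2.83). The mast cell protease Cpa3 had 279, 128 and 273 against 3552 and 1463 (log2 fold change -3.41 ± 0.57 (SE), adjusted p = 8.92e-04), and Ms4a2, the beta chain of the IgE receptor, had 14.3, 31.2 and 38.6 against 477 and 408 (log2 fold change -4.04 ± 0.55 (SE), adjusted p = 2.77e-04). Mcpt2 rose (4.38), but it belongs to a family of close copies among which reads can be split. Kit, the stem cell factor receptor, had 584, 1029.5 and 883 against 508 and 448 and was not called, except with NC 2 as the only graft (log2 fold change 1.11). Red cell genes fell in 5 of 6 cases, with Hbb at 1494, 1812 and 1988 against 15090.4 and 6084 (log2 fold change -2.45 ± 0.44 (SE), adjusted p = 0.00135), and Unop 1 held more than Unop 2.

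T cell transcripts rose in every graft. All 19 T cell identity genes rose, with a median log2 fold change of 6.27 (5.94 with genes that had no read in Unop nerves set to their lower bound), among the highest medians of the 40 gene lists. The list held 0.12%, 0.215% and 0.165% of the reads of NC 1, NC 2 and NC 3 against 0.00636% and 0.00551% of those of Unop 1 and Unop 2. Cd3e, a chain of the T cell receptor complex, had 4023, 7609 and 5022 normalized read counts in NC 1 to NC 3 and 39.7 and 15.01 in the Unop nerves (log2 fold change 7.71 ± 0.63 (SE), adjusted p = 1.56e-05). The coreceptor of cytotoxic T cells, Cd8a, had 5330.4, 8301 and 6595 against 94.4 and 43.8 (log2 fold change 6.67 ± 0.46 (SE), adjusted p = 6.77e-06). Cd4, the coreceptor of helper T cells that rat macrophages also carry, had 7776, 10656 and 11602 against 1751 and 1578 (log2 fold change 2.57 ± 0.16 (SE), adjusted p = 4.14e-06), the least of the list. NC 2 was highest for Cd3e, and no graft came near a Unop nerve.

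Of 18 cytotoxic effector genes present in the data, 16 reached the minimum and were tested, and all 16 rose (median 6.16). Some, among them Gzmb and Ifng, reached the minimum only through NC PNAs, so the minimum itself favoured a rise. Prf1 (perforin), which opens pores in target cells, had 1839, 2924 and 3429 normalized read counts in NC PNAs against 46.1 and 22.5 in Unop nerves (log2 fold change 6.31 ± 0.56 (SE), adjusted p = 2.43e-05). Gzmb (granzyme B), the protease that perforin lets in, had 169.8, 123 and 265 against 3.22 and 0, the latter being 3 reads in all, a ratio of 108.3-fold (95% counting interval 36.9 to 527). Ifng (interferon gamma) had 135, 192.6 and 240.2 against 1.07 and 0, or 1 read in the Unop nerves, a ratio of 325-fold (95% counting interval 58.1 to 12855). Such intervals cover counting error only. The transcription factors of this state, Tbx21 (6.57) and Eomes (6.49), and the natural killer receptors Klrd1 (5.61) and Klrk1 (6.02) rose with them. Gzmm, granzyme M, changed least, with 1491, 3236 and 1536 against 569 and 340.2 (log2 fold change 2.15 ± 0.56 (SE), adjusted p = 0.00928), and without Unop 2 its log2 fold change was 1.78 with adjusted p = 0.0808. All 21 costimulation and checkpoint genes rose (median 5.30), activators and inhibitors alike. Cd28, which gives T cells their second signal, had 579, 570.2 and 482 against 5.37 and 6.25 (log2 fold change 6.32 ± 0.26 (SE), adjusted p = 8.53e-07), and Ctla4, which opposes it, had 562, 1752 and 1304 against 12.9 and 15.01 (log2 fold change 6.19 ± 0.57 (SE), adjusted p = 2.92e-05). Pdcd1 (PD-1, 6.82), its ligand Cd274 (PD-L1, 2.38), Lag3 (7.01) and Foxp3 (5.56), the factor of regulatory T cells, rose. Ido1, which degrades tryptophan and restrains T cells, had 799.8, 886 and 657 against 2.15 and 0, the latter being 2 reads, a ratio of 673-fold (95% counting interval 186.2 to 5564).

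B and plasma cell genes rose in 13 of 14 cases (median 3.71), from low levels. Pou2af1, a B cell coactivator, had 164, 279 and 143 normalized read counts in NC PNAs against 8.59 and 2.50 in Unop nerves (log2 fold change 5.02 ± 0.54 (SE), adjusted p = 6.90e-05). Xbp1, which secretory cells of many kinds use, was not called (0.29). NC 2 was the highest graft for Pou2af1. Of 11 dendritic cell genes, 9 rose (median 3.63), with Xcr1, a chemokine receptor of cross-presenting dendritic cells, at 1375, 1543 and 813 against 35.4 and 15.01 (log2 fold change 5.64 ± 0.56 (SE), adjusted p = 4.53e-05) and Ccr7, which guides mature dendritic cells and T cells to lymph nodes, at 1016, 2033 and 1029 against 9.66 and 6.25 (log2 fold change 7.19 ± 0.45 (SE), adjusted p = 4.02e-06).

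Genes induced by interferons and genes of antigen presentation rose together. Of 25 tested interferon response genes, 22 rose (median 3.10), and of 21 antigen presentation genes, 20 rose (median 3.48). Irf1, a transcription factor induced by interferon gamma, had 20631, 18723 and 16665 normalized read counts in the grafts and 1378 and 1099 in the Unop nerves (log2 fold change 3.92 ± 0.18 (SE), adjusted p = 1.14e-06). Cxcl11, a chemokine that draws T cells through Cxcr3, had 11889, 7157 and 5481 against 20.4 and 35.02 (log2 fold change 8.13 ± 0.61 (SE), adjusted p = 9.75e-06). Its relatives Cxcl9 (6.26) and Cxcl10 (5.87) and their receptor Cxcr3 (7.33) rose too. Irf7, a factor tied to type I interferon, had 13173, 4301 and 3902 against 829 and 683 (log2 fold change 3.01 ± 0.69 (SE), adjusted p = 0.00483), with NC 1 about 3 times as high as the other grafts and a log2 fold change of 2.44 without it. Ifitm3 overlapped between groups (14987, 10623 and 9999.5 against 11638 and 7138) and was not called. B2m, the light chain of class I MHC, had 314043, 335977 and 286945 against 74626 and 49152 (log2 fold change 2.36 ± 0.30 (SE), adjusted p = 1.91e-04). Nlrc5, the activator of class I genes, had 3685, 4041 and 3839 against 78.3 and 78.8 (log2 fold change 5.60 ± 0.25 (SE), adjusted p = 1.07e-06), and Ciita, that of class II genes, rose by 5.37. The class II genes RT1-Ba (4.53) and RT1-Da (4.47), the peptide transporter Tap1 (4.16) and the immunoproteasome subunits Psmb8 (3.48) and Psmb9 (4.18) rose. RT1-A1 (1.76) and RT1-A2 (3.03) are close copies that also differ between outbred rats, so their reads can be split or lost, and donor and host MHC transcripts were not told apart.

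Promoter stretches of 4 of these genes, chosen because they hold a match, are shown as examples of the letters searched. Other members that were looked at held none before their start, among them Cxcl9 and Psmb9 for GAS and Cxcl11 for ISRE. Stretches of 60 bases before the annotated transcription start were taken from RefSeq (build GRCr8), where capitals mark a gamma-activated site (GAS, TTCNNNGAA) in Irf1 and an interferon-stimulated response element (ISRE, a pair of GAAA with any 2 bases between, on either strand) in the other 3.
Irf1 (chr10:38417768-38417827, plus strand): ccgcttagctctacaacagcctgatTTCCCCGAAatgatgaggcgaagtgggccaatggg
Gbp2 (chr2:234005667-234005726, plus strand): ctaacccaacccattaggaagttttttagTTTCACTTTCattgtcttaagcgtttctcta
Tap1 (chr20:4668630-4668689, minus strand): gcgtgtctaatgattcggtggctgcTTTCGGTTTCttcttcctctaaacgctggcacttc
Cxcl10 (chr14:15988816-15988875, plus strand): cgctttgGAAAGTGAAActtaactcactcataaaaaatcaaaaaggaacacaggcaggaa
The match began 142 bases before the start of Irf1, 31 before that of Gbp2, a guanylate-binding GTPase (4.24), 121 before that of Tap1 and 243 before that of Cxcl10. Promoters of 300 bases, 250 before and 50 after the start, were found for 20 of the 25 interferon response genes, and 12 (60%) held the ISRE letters and 10 (50%) the GAS letters. Over all 27457 RefSeq promoters of this length the shares were 3.77% and 8.68%. Among antigen presentation genes, 8 of 18 (44.4%) held the ISRE letters and 1 (5.56%) the GAS letters. Of the genes called higher, 5.37% held the ISRE letters, beside 1.68% of those called lower and 2.96% of tested genes. These are matches of letters, and binding was not measured.

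Myeloid genes rose broadly. Of 20 macrophage and monocyte genes, 19 rose (median 3.05), and they held 1.84%, 2.51% and 2.62% of the reads of NC 1, NC 2 and NC 3 against 0.149% and 0.102% of those of Unop 1 and Unop 2. Cd68, a lysosomal protein of macrophages, had 14060.1, 18968 and 16383 normalized read counts in NC PNAs against 1529 and 787 in Unop nerves (log2 fold change 3.90 ± 0.25 (SE), adjusted p = 4.57e-06). Csf1r, the receptor that macrophages need to survive, had 17188, 20546 and 22061 against 5752 and 4765 (log2 fold change 1.92 ± 0.14 (SE), adjusted p = 7.37e-06). Nos2, the inducible nitric oxide synthase, had no read in either Unop nerve and 32.2, 219 and 183 in the grafts, at least 41.6-fold higher by a floor of 3 counts per library, and NC 1 was the lowest graft. Arg1, arginase, rose too (2.04), with an adjusted p of 0.0536 without Unop 2. Mertk, which takes up dying cells, overlapped at 2319, 3283 and 3718 against 2577 and 3152. Among 20 Fc receptor and ITAM signalling genes, 19 rose (median 3.81). Fcgr3a, an activating IgG receptor, had 4434, 5848 and 7149 against 74.1 and 40.02 (log2 fold change 6.68 ± 0.37 (SE), adjusted p = 2.34e-06), whereas the inhibitory receptor Fcgr2b overlapped at 3567, 4823 and 4688 against 5186 and 3551. Lyn, a Src-family kinase that acts on such receptors, had 7207, 7419 and 7503 against 810.3 and 679 (log2 fold change 3.31 ± 0.09 (SE), adjusted p = 3.94e-07). Nfam1, an ITAM receptor, had 8261, 9871 and 8664 against 387 and 298 (log2 fold change 4.71 ± 0.14 (SE), adjusted p = 5.55e-07), and Cd300lf, a lipid-binding receptor of myeloid cells, had 2701, 2679.8 and 2788 against 53.7 and 45.03 (log2 fold change 5.76 ± 0.14 (SE), adjusted p = 2.48e-07). The grafts lay close together for these 3 genes, and their adjusted p values were among the 10 smallest of the genes that rose.

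Genes of lipid-handling macrophages rose in 11 of 14 cases (median 1.98). Gpnmb, a glycoprotein of lipid-laden macrophages, had 47804, 58012 and 66965 normalized read counts in NC PNAs and 6066 and 3529.6 in Unop nerves (log2 fold change 3.62 ± 0.26 (SE), adjusted p = 7.73e-06). Apoe, which carries cholesterol out of cells, had 517938, 712062 and 622453 against 115567 and 80919 (log2 fold change 2.66 ± 0.33 (SE), adjusted p = 1.52e-04). The receptor Trem2 had 5754, 7169 and 6388 against 947 and 609 (log2 fold change 3.08 ± 0.18 (SE), adjusted p = 3.20e-06), and the cholesterol exporters Abca1 (2.61) and Abcg1 (2.32) rose. Spp1 (osteopontin) fell, with 21037, 12807 and 16517 against 125466 and 88731 (log2 fold change -2.68 ± 0.26 (SE), adjusted p = 3.84e-05), and Lpl, which fat cells also express, fell by 2.44. Lysosomal genes rose in 12 of 23 cases (median 1.23), with the protease Ctsb at 112205, 137761 and 144336 against 44737 and 35984 (log2 fold change 1.70 ± 0.21 (SE), adjusted p = 1.54e-04), while Lamp2 was not called (-0.58). Of 9 neutrophil genes, 7 rose and 1 fell. Ncf1, an oxidase subunit that macrophages share, had 21424, 31172 and 33717 against 719 and 555 (log2 fold change 5.48 ± 0.22 (SE), adjusted p = 8.45e-07), but the more neutrophil-restricted S100a8 had only 10.7, 17.2 and 12.5 against 5.37 and 3.75 (log2 fold change 1.37 ± 0.38 (SE), adjusted p = 0.0123) and Mpo fell (16.1, 6.45 and 10.6 against 391 and 343). S100a8 was not called without Unop 2 (adjusted p = 0.0588), by DESeq2 (adjusted p = 0.0707) or with a pseudocount of 8 (log2 fold change 0.77). Complement genes rose in 16 and fell in 3 of 27 cases. C3, on which all complement pathways meet, had 28111, 39855 and 26344 against 554 and 589 (log2 fold change 5.76 ± 0.42 (SE), adjusted p = 8.73e-06), and C1qa, of the first component, had 40456, 42958 and 46376 against 6867 and 3809 (log2 fold change 3.08 ± 0.24 (SE), adjusted p = 1.12e-05). The regulators Cd59 (-2.00) and Clu (-1.55) fell.

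Chemokine and cytokine genes rose in most cases. Of 50 chemokines and chemokine receptors, 38 rose and 4 fell (median 3.89). Those that rose included Ccl3 (4.29), Ccl4 (4.46) and Ccl5 (6.77), which draw T cells and macrophages, and the monocyte attractants Ccl2 (3.92) and Ccl7 (3.81). Ccl21, a ligand of Ccr7 made by lymphatic vessels, fell, with 113, 49.5 and 197 against 15435 and 5393 (log2 fold change -6.45 ± 1.30 (SE), adjusted p = 0.00255). The scavenging receptors Ackr2 (-2.68) and Ackr4 (-2.54) fell, and without Unop 1 the log2 fold change of Ackr2 was -2.15 with adjusted p = 0.0632. Of 58 interleukin and interleukin receptor genes, 36 rose and 8 fell. Il2rb, a signalling chain of the receptors for interleukins 2 and 15, had 4843, 8566 and 5188 against 32.2 and 23.8 (log2 fold change 7.71 ± 0.46 (SE), adjusted p = 3.30e-06). Il10 had 62.6, 136 and 113 against 3.22 and 1.25 (log2 fold change 5.01 ± 0.47 (SE), adjusted p = 3.16e-05) and its receptor chain Il10ra 2215, 2559 and 2648 against 91.2 and 111 (log2 fold change 4.60 ± 0.12 (SE), adjusted p = 3.94e-07). Both inflammatory and restraining cytokines were in this group, with Il1b (4.93) and its antagonist Il1rn (6.06). Il12b, a subunit of interleukins 12 and 23, had no read in either Unop nerve and 91.1, 158 and 67.5 normalized read counts in the grafts, at least 30.3-fold higher by a floor of 3 counts per library. Il25 fell from low levels, with 0.894, 0 and 0.965 against 21.5 and 28.8, 2 reads in the grafts, a ratio of 38.3-fold (95% counting interval 9.98 to 326) in favour of Unop nerves.

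Proliferation genes rose evenly over the 3 grafts. Of 24 cell cycle genes, 21 rose (median 3.69). Top2a, a topoisomerase of dividing cells, had 3617, 3933 and 3437 normalized read counts in NC 1 to NC 3 and 105 and 78.8 in the Unop nerves (log2 fold change 5.31 ± 0.13 (SE), adjusted p = 2.48e-07). Mki67, the antigen Ki-67, had 3642, 4330.0 and 3361 against 182 and 203 (log2 fold change 4.28 ± 0.14 (SE), adjusted p = 6.09e-07), and Cenpf, a kinetochore protein, had 1412, 1567 and 1418 against 37.6 and 27.5 (log2 fold change 5.47 ± 0.15 (SE), adjusted p = 4.10e-07). Groups were more than 10-fold apart for these genes and the grafts differed little from each other. Pcna, a replication clamp also used in repair, was not called, with 5562, 5197 and 4155 against 4578 and 3841. CCAAT, the letters bound by the factor NF-Y, searched on both strands, stood in the promoters of 13 of 19 cell cycle genes found in RefSeq (68.4%), beside 37.7% of all promoters and 37.3% of the genes called higher. The letters also stood in other lists, with 12 of 14 sterol synthesis promoters (85.7%) and 12 of 18 antigen presentation promoters (66.7%). Most sterol synthesis genes fell. The letters of a sterol regulatory element (TCACNCCAC) were searched as well and stood in 0 of the 14 sterol synthesis promoters, beside 1.1% of tested genes. The following stretch of Ccnb1, the cyclin of mitosis (3.47), is shown as an example, with CCAAT in capitals.
Ccnb1 (chr2:33655273-33655332, minus strand): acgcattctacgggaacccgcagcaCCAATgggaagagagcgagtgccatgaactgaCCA
The last 3 capitals are the start of another match that runs on past the stretch.

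Skeletal muscle transcripts had high means in NC PNAs, but the libraries of the groups overlapped for most of them. Acta1, skeletal muscle actin, had 202479.8, 3635 and 76780.2 normalized read counts in NC 1, NC 2 and NC 3 and 8945 and 1759.8 in Unop 1 and Unop 2 (log2 fold change 3.27 ± 1.58 (SE), adjusted p = 0.0992). Ckm, muscle creatine kinase, had 47582, 622 and 15816 against 3344 and 351 (log2 fold change 2.84 ± 1.73 (SE), adjusted p = 0.18). NC 1 and NC 3 were above both Unop nerves and NC 2 lay between them. Of 17 muscle fibre genes, Neb (3.86), Tnnt1 (3.46) and Tnni1 (3.80) were called higher (17.6%, beside 19.6% of all tested genes). The number went from 3 to 16 without NC 2 and to 1 without NC 1 or NC 3. Neb and Tnni1 were not called without NC 1 (adjusted p = 0.0716 and 0.0812) or NC 3 (adjusted p = 0.0846 and 0.09). They were also not called with only the 5 libraries or in the robust fit. Without Unop 1 their log2 fold changes were 4.39 and 2.36, and without Unop 2 that of Neb was 3.34. With NC 2 as the only graft they were 0.83 and 1.17. The number called higher was 12 with the replicate block and 14 by DESeq2. Each of these 2 alternatives called Acta1 (adjusted p = 0.0185 and 0.00903) and Ckm (adjusted p = 0.0369 and 0.0401). Without NC 2, Acta1 reached 4.97 (adjusted p = 0.0031) and Ckm 4.66 (adjusted p = 0.0083). Among genes of muscle development, Actc1, the cardiac actin of developing muscle, had 5141, 261 and 4820.3 against 15.02 and 5.003 (log2 fold change 7.57 ± 1.27 (SE), adjusted p = 9.25e-04), and Myog (myogenin) had 817, 29.05 and 592 against 7.51 and 1.25 (log2 fold change 5.80 ± 1.37 (SE), adjusted p = 0.00577). For both, even NC 2 was above the Unop nerves. Myf5, a factor of muscle precursors, had no read in Unop nerves and 115, 4.30 and 95.5 in the grafts, at least 20.6-fold higher by the floor. Of 13 such genes, 7 did not overlap between groups, where 75% of all tested genes did not overlap. Of the 13, 8 (61.5%) were called higher, beside 19.6% of all tested genes. Their median was 5.29, or 4.36 with Myf5 and the like at their bound. The number called higher was 12 without NC 2, and it was lower without Unop 2 or with NC 2 as the only graft. Without Unop 2 the adjusted p of Myog was 0.0574, and with NC 2 as the only graft it was 0.0669 for Myog and 0.0859 for Myf5, while Actc1 was called with a log2 fold change of 4.74.

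Metabolic genes changed in part. Mitochondrially encoded transcripts fell in 11 of 13 cases (median -1.46), with Mt-nd2 at 195117, 171451 and 133310.5 normalized read counts in NC PNAs against 822236 and 488436 in Unop nerves (log2 fold change -1.94 ± 0.32 (SE), adjusted p = 7.87e-04). Of 79 tested subunits of oxidative phosphorylation encoded in the nucleus, only 3 fell (3.8%, beside 19.3% of all tested genes), with a list median of -0.29. These were Cox7a1 (-3.12), Ndufs4 (-1.08) and Ndufv2 (-1.11). Ndufs4 and Ndufv2 were just inside the threshold and were not called without NC 3 (-0.99 and -0.98) or without Unop 1 (-0.95 and -0.97). The muscle forms Cox6a2 (2.79) and Cox8b (2.11) had the highest values, which limma did not call. Cox6a2 had 5176, 131 and 2165 against 419 and 63.8, high in NC 1 and NC 3 as the muscle fibre genes were, and without NC 2 both were called (Cox6a2 4.34, Cox8b 4.06). Cox6a2 was also called with the replicate block (2.57, adjusted p = 0.013) and by DESeq2 (3.37, adjusted p = 0.0441). Glycolytic genes rose in 7 (31.8%) and fell in 4 (18.2%) of 22 cases, beside 19.6% and 19.3% of all tested genes. Hk3, the hexokinase of leukocytes, had 7290.1, 7856 and 8029 against 90.1 and 43.8 (log2 fold change 6.92 ± 0.31 (SE), adjusted p = 1.07e-06), and Hk2, an inducible hexokinase, had 3294, 3680.2 and 3815 against 660.0 and 669 (log2 fold change 2.43 ± 0.10 (SE), adjusted p = 9.33e-07). The housekeeping form Hk1 had -0.82, and Aldoc, an aldolase of glia, fell, with 321, 629 and 433 against 6351 and 7318 (log2 fold change -3.94 ± 0.27 (SE), adjusted p = 5.88e-06). With NC 2 as the only graft, 9 glycolytic genes were called higher. The lactate exporter Slc16a3 rose (4.05) and Slc16a1, a transporter that passes lactate from Schwann cells to axons, fell (-1.36). Enzymes of polyol and monoamine metabolism fell in 6 of 7 cases: Akr1b1, aldose reductase, had 8331, 7108 and 7112 against 74534 and 78448 (log2 fold change -3.35 ± 0.10 (SE), adjusted p = 5.55e-07), and Maob, a monoamine oxidase, had 286, 185 and 187.1 against 21461 and 25927 (log2 fold change -6.77 ± 0.21 (SE), adjusted p = 5.55e-07). Cytosolic ribosomal protein genes formed a flat reference: limma called none of 65 (8 at an unadjusted p under 0.05, 4 at an adjusted p under 0.05), edgeR called 0, and DESeq2 called 1 in each direction. Their median was 0.09, and Rpl3l (3.21), a paralog of muscle, was the outermost at 2117, 74.2 and 728 against 173 and 15.01 and was called with the replicate block (2.95), by DESeq2 (3.37), and without NC 2 (4.56) or Unop 1 (4.93).

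**Figure D4:**
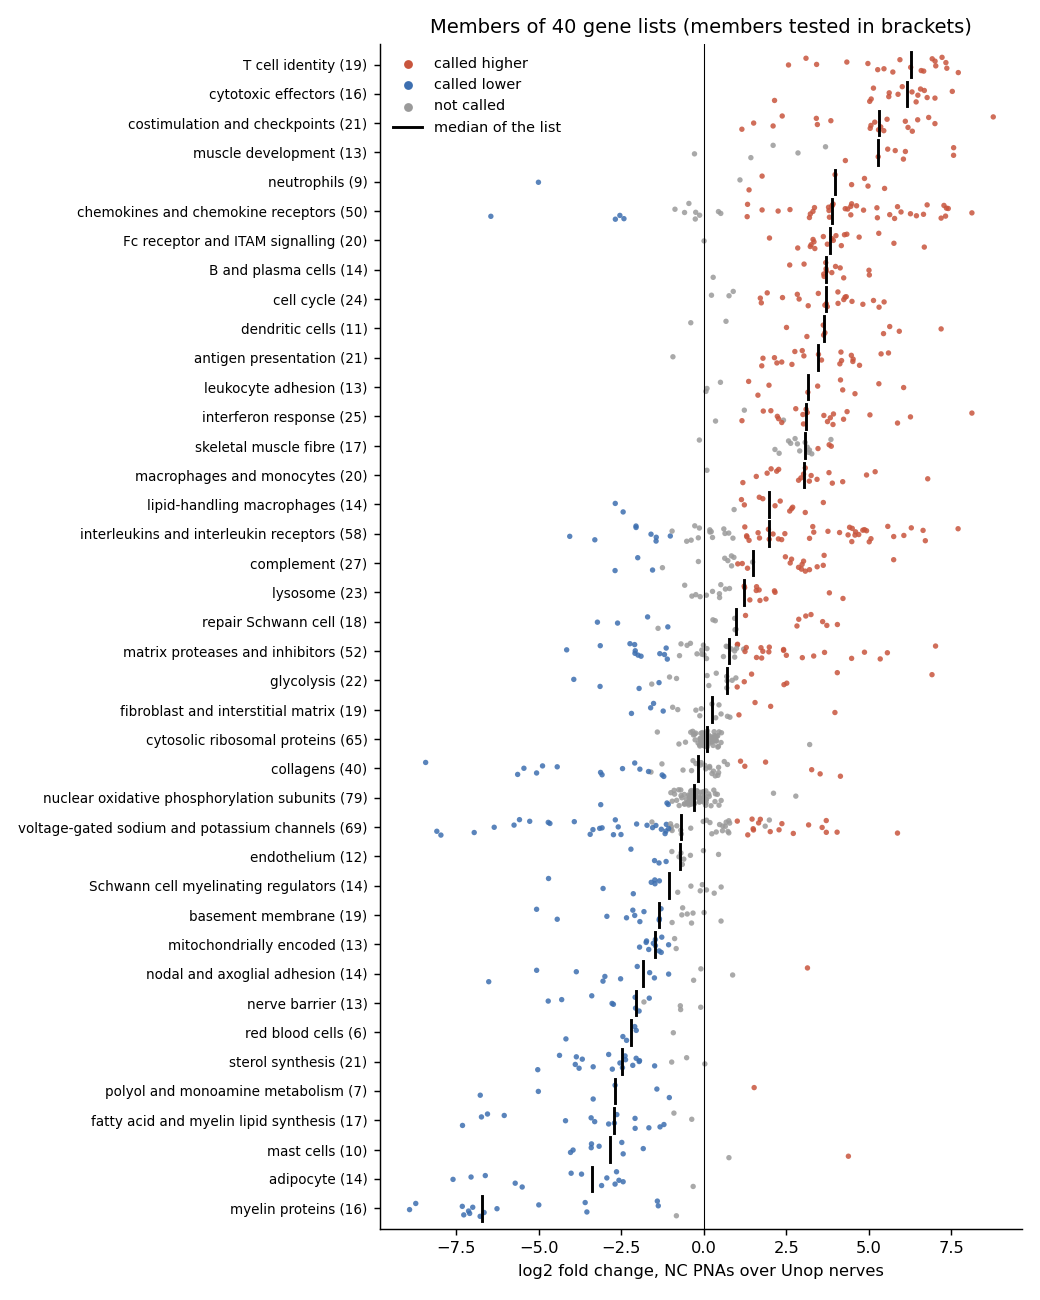
Log2 fold change of NC PNAs over Unop nerves for each tested member of 40 gene lists, ordered by list median, with members called higher in red, called lower in blue and not called in grey and a black bar for the median. Medians run from -6.72 for myelin proteins to 6.27 for T cell identity, with ribosomal protein genes at 0.09. The members were chosen with earlier results of these data known.

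The PEG-fused PNAs, allografts of the same age whose cut axons were joined with polyethylene glycol, give the values of the same genes in another kind of allograft. Both contrasts with Unop nerves rest on the same 2 nerves, so their values are set side by side only. The test is that of NC against PEG-fused PNAs, in which 7.28% of tested genes were higher and 4.16% lower in NC PNAs. The tested genes had reached the minimum in the NC and Unop libraries. Genes expressed only in PEG-fused PNAs were therefore left out, which favoured calls higher in NC PNAs. Against Unop nerves, the median of myelin proteins was -6.72 in NC PNAs and -6.14 in PEG-fused PNAs, and that of sterol synthesis was -2.46 in NC PNAs and -2.69 in PEG-fused PNAs. Of the 16 myelin genes 1, the connexin Gjb1, was lower in NC than in PEG-fused PNAs (-2.29, adjusted p = 0.0161), and Hmgcs1 differed by 0.13, adjusted p = 0.677. For cell cycle genes the medians were 3.69 in NC PNAs and 3.79 in PEG-fused PNAs, and Top2a differed by -0.03, adjusted p = 0.868. More genes of the T cell lists differed. For T cell identity the medians were 6.27 in NC PNAs and 3.36 in PEG-fused PNAs, with 18 of 19 genes higher in NC than in PEG-fused PNAs, and for cytotoxic effectors they were 6.16 in NC PNAs and 2.95 in PEG-fused PNAs, with 16 of 16 higher. Cd3e was higher in NC than in PEG-fused PNAs by 3.53, adjusted p = 0.0033, and Irf1 by 2.98, adjusted p = 2.00e-04. Among antigen presentation genes 17 of 21 were higher in NC PNAs, against 7 of 20 macrophage genes, and Cd68 differed by -0.36, adjusted p = 0.264. Ngfr was lower in NC than in PEG-fused PNAs (-1.45, adjusted p = 0.00138), as were Sox2 (-1.15, adjusted p = 0.00225) and Shh (-2.88, adjusted p = 0.00103). Collagen genes gave 12 of 40 lower in NC PNAs.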

How the data were processed

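Poly-A RNA of 8 sciatic nerve samples was sequenced by the authors as paired-end reads (TruSeq Stranded mRNA). Alignment by the authors used TopHat2 and the Rnor 6.0 assembly, and HTSeq-count gave reads per gene. The deposited signal is a normalized read count, made by the authors with the median-of-ratios factors of DESeq2. Tool versions are not given in the sources used here, nor is the strand setting of the counting. The authors also deposited log2 fold changes, Wald scores and p-values for each pair of groups, and none of these was used.

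Multiplying each library by its own constant gave whole reads (100% of values, tolerance 0.001). Genes with at least 10 normalized read counts in 2 of the 5 NC and Unop libraries were tested with limma 3.58.1 (trend, R 4.3.3) on log2(normalized read count + 1). All 8 libraries entered 1 group-means fit, so the PEG-fused PNAs helped to estimate the spread (5 residual and 3.23 prior degrees of freedom), and p was adjusted by Benjamini-Hochberg over 16188 genes. The study gives 3 animals for the NC PNAs and 2 for the Unop nerves, 1 library each, so the spread is between animals. Where a group had no read, its libraries were set to a floor of 3 counts (2.68 to 3.75 normalized read counts) and the fold change was given as a bound. Where it had 1 to 3 reads, the ratio was given with an exact interval, which covers counting error only.

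Alternatives were edgeR 4.0.16 (quasi-likelihood) and DESeq2 1.42.0 on the recovered reads, TMM factors, other filters, a pseudocount of 8, a robust fit, only the 5 libraries, no fold change threshold, a block by replicate number and each library left out. NC 2 as the only graft was added after seeing the data. The limma fit was tried on simulated data for the NC against Unop comparison with 16188 genes. It recovered 14 of 40 genes raised 2-fold, 33 of 40 raised 4-fold and 38 of 40 raised 8-fold. Of genes lowered to 0.5 and 0.25 of their level it recovered 24 of 40 and 29 of 40, with 8 false calls of 15988. Recovery meant an adjusted p under 0.05, without the fold change threshold. In the data 5257 and 5321 genes passed that adjusted p, far more than were changed here, so the rates do not carry over to the data.

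Named genes are the 10 largest rises and falls with a mean of at least 100, the 10 smallest adjusted p values in each direction, genes the study labels, and from each gene list the first 3 tested members and the highest and lowest. Other list members were named after their values were seen, and some genes are not reported here. The 40 lists and this comparison were chosen with earlier results of these data known. Symbols are those of the deposited table (24 identifiers had none, and for 155 symbols on several identifiers the most abundant was taken). Promoters were matched by symbol. Figures used matplotlib.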

Additional observations from a re-analysis of the deposited data

How the results depend on the processing

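Of the counts of called genes followed under every alternative, those over all genes stayed within 1.5 times except without the fold change threshold, when 5257 genes were higher and 5321 lower. The other alternatives gave 2591 to 3619 higher and 2672 to 3500 lower, the ends being a filter of 50 counts and no filter. That threshold also set endothelium lower (9 without it, against 4) and glycolysis higher (12, against 7), and the filter of 50 counts left 4 of 7 neutrophil genes higher. Muscle fibre genes called higher were 3, but 12 with the replicate block, 1 with only the 5 libraries, 6 by edgeR, 14 by DESeq2 and 1 in the robust fit. Leaving out libraries gave a range of 1 to 16 for these genes, 3 to 12 for muscle development, 10 to 20 for channels called higher and 4 to 7 for endothelium called lower. The cause was not tested.

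For the 216 genes named in the text, 2919 values under the alternatives kept their direction and their side of an adjusted p of 0.05, 56 lost it, 26 gained it and 20, in 10 genes, turned. The genes that turned were not called. Leaving out libraries moved the log2 fold change of Acta1 from -0.13 to 4.97, Ckm from -0.80 to 4.66, Cox6a2 from -0.32 to 4.34, Cox8b from -1.77 to 4.06, Col1a1 from -0.17 to 0.67, Fcgr2b from -0.26 to 0.28, Mertk from -0.049 to 0.29, Ocln from -0.18 to 0.084, Pou3f1 from -0.67 to 0.46 and Sele from -0.11 to 0.24. Fcgr2b was -0.0016 by DESeq2.

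The labels do not pair the replicate numbers. Deviations from the group means of same-numbered samples correlated at 0.168 for both NC and Unop pairs. They correlated at 0.168 and 0.143 for Unop and PEG-fused pairs, and at 0.112, 0.110 and -0.057 for NC and PEG-fused pairs. Pairs with different numbers ran from -0.168 to 0.104. Whether same-numbered samples share more than a number is not known, and the main fit had no replicate block. With 2 Unop nerves their deviations mirror each other, so their pairs are not independent. The replicate block gave 3112 genes higher and 3051 lower and turned Fcgr2b (-0.021), Mertk (-0.0033) and Sele (-0.017).

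With 2 Unop nerves, leaving 1 out leaves a lone sample that is assumed to vary like the other groups. Surgery, injury and rejection cannot be told apart in this comparison, nor can a change in nerve from a change in the fat, muscle or blood taken with it. Reads of near-identical copies can be split, and the strand setting of the counting is not given in the sources used here. At this depth a group with no read has a floor of 2.68 to 3.75 normalized read counts per library, which limits what can be said of low genes.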

Other observations

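Several of the genes with the largest rises belong to none of the gene lists. Acod1, which makes itaconate in activated macrophages, had a log2 fold change of 9.06, the highest of the genes named on that scale. Ratios given for genes with few reads in Unop nerves are not on that scale and are not ranked with it. Ubd, a ubiquitin-like modifier induced by interferon gamma and TNF, rose by 8.15, and Tnfrsf14, a receptor of the TNF family on lymphocytes, rose by 8.16. Batf2 and Zbtb32, transcription factors of activated leukocytes, had 3 reads and 1 read in the Unop nerves, giving ratios of 374-fold (95% counting interval 128 to 1816) and 851-fold (153 to 33645). A pair of trypsinogen-like genes was also among the 10 largest rises. LOC312273 had 2138, 1738 and 1303 normalized read counts in NC 1, NC 2 and NC 3 against 6.44 and 1.25 in Unop 1 and Unop 2 (log2 fold change 8.69 ± 0.64 (SE), adjusted p = 9.09e-06). LOC286960 had 513, 361 and 480.4 against 0 and 1.25, where 1 read gives a ratio of 790.1-fold (142 to 31229). Trypsinogen genes are near-identical copies, so reads can be split among them.

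Among genes that fell outside the lists, Ankfn1 had no read in any NC PNA and 261 and 562 normalized read counts in the Unop nerves, at least 140.1-fold lower in the grafts by a floor of 3 counts per library. Slc36a2, an amino acid transporter, had 109.9, 10.8 and 6.75 against 5244 and 7619.5 (log2 fold change -8.19 ± 0.98 (SE), adjusted p = 1.32e-04), and NC 1 was the highest graft, as it was for the myelin genes. Calml3, a calmodulin-like protein of epithelia, had 15.2, 2.15 and 5.79 against 2715 and 1994 (log2 fold change -8.37 ± 0.68 (SE)). Tmem189, which makes plasmalogens, the ether lipids abundant in myelin, had 2044, 2104 and 1877 against 12109 and 12437 (log2 fold change -2.61 ± 0.08 (SE), adjusted p = 6.09e-07). The palmitoyltransferase Zdhhc2 (-4.18) and the tetraspanin Tspan17 (-3.61) were also among the 10 smallest adjusted p values of genes that fell, with each graft far below both Unop nerves.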
